A study of Mus musculus with 6 samples.

Results

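The 46 genes described here act in G2 phase and mitosis, and they were taken by symbol from the 32285 genes counted in 4 single-cell libraries of mouse CD4+ T cells. All 46 symbols were present. They were split by the role and usual breadth of expression of each gene into 32 core members, whose transcripts are known mostly from G2 and M phase, and 14 broad members (Hmgb2, Cks2, Cks1b, Bub3, Pttg1, Tacc3, Smc4, Ckap2, Ckap5, Tubb4b, Tubb5, Stmn1, Anp32e and Lbr), which resting cells also make. The cells were OT-II CD4+ T cells, whose receptor recognises an ovalbumin peptide, from OTII+/+ RAG-/- donors. Such donors make no B cells and no T cells with other receptors. The WT group (libraries WT 1 and WT 2) had unmodified donors. The mutant group (mutant 1 and mutant 2) had heterozygous TgfbrIWT/mut donors, in which the M318R allele found in patients with LDS (Loeys-Dietz syndrome) is knocked into Tgfbr1, the type I TGF-beta receptor. In both groups the donor cells were CD4+ bead-purified and injected into CD45.1 WT hosts that drank 1.5% ovalbumin for 7 days. On day 8, CD45.2+CD45.1-CD4+CD8-TCRβ+ cells were sorted out of the Peyer's patches, which are lymphoid organs in the wall of the small intestine. The hosts therefore keep normal receptors and their own lymphocytes, and only the transferred T cells carry the allele.

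Cells in G2 prepare to divide and in mitosis separate their chromosomes. Cyclin A2 and the B-type cyclins activate the kinase Cdk1, the Polo and Aurora kinases build the spindle, kinetochores tie chromosomes to it, and the spindle checkpoint holds back the anaphase-promoting complex until every chromosome is attached. Many of these genes are transcribed together late in the cycle. This runs through CCAAT boxes, bound by NF-Y, and the cell cycle genes homology region (CHR), bound by the MuvB complexes. Some of their products, such as the B-type cyclins, are destroyed as the cell exits mitosis. In Peyer's patches, T follicular helper (Tfh) cells help B cells form germinal centres, and TGF-beta receptor signalling is known to restrain T cell proliferation.

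The promoters below are shown as examples of these elements in members with different roles. Each is the 150 bases before the RefSeq start of the gene (GRCm38.p6), read 5′ to 3′ on the gene's strand, with capitals marking CCAAT (or ATTGG) and CHR letters (TTTGAA or TTCGAA, or TTCAAA on the other strand). Cdk1 is the mitotic kinase (chr10:69352913-69353062, minus strand), Mki67 encodes the coat protein of mitotic chromosomes Ki-67 (chr7:135716380-135716529, minus strand), Top2a untangles sister DNA (chr11:99024190-99024339, minus strand), Cdc20 activates the anaphase-promoting complex (chr4:118437344-118437493, minus strand) and Ube2c is the ubiquitin-conjugating enzyme of that complex (chr2:164769779-164769928, plus strand).
Cdk1: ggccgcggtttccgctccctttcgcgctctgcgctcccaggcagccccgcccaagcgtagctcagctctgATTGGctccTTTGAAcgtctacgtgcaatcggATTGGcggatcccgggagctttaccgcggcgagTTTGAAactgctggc
Mki67: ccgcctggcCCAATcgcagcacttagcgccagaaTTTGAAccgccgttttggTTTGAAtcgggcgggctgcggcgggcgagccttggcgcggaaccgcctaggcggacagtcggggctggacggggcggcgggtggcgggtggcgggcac
Top2a: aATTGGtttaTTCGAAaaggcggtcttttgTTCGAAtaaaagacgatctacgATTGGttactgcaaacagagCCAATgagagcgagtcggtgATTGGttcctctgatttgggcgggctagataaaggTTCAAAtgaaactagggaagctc
Cdc20: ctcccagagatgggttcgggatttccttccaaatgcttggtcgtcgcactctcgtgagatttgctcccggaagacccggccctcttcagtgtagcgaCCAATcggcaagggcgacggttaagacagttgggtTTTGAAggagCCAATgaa
Ube2c: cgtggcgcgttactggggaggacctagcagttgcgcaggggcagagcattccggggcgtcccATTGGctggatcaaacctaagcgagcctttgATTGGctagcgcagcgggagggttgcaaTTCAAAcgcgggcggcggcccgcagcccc

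The RefSeq table held a promoter window, from 250 bases before to 50 after the start, for 40 of the 46 members. CHR letters were found in 30 of them (75.0%), in 21.2% of 33 S phase genes, in 66.1% of 62 other G2 and M genes and in 21.7% of the 27025 genes of the table. At least 1 CCAAT was found in 33 members (82.5%), in 63.6% of 33 S phase genes, in 62.9% of 62 other G2 and M genes and in 41.1% of all genes. Both were found in 27 members (67.5%), in 15.2% of the S phase genes, in 45.2% of the other G2 and M genes and in 8.61% of all genes. Both strands were searched, TTCGAA is its own reverse complement, and the motifs were matched separately and may share end letters. Both were found in 67.9% of 28 core and 66.7% of 12 broad members. The windows of Nusap1, Birc5, Pttg1 and Tacc3 held neither. A match is letters only, and nothing here measured binding.

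The matrices held 4803 barcodes. Kept T cells had at least 500 genes and at most 10% mitochondrial UMIs (unique molecular identifiers, 1 per captured transcript), were not called doublets and were not in a cluster led by epithelial and B cell markers. WT 1 gave 1275 such cells (12037682 UMIs), WT 2 gave 630 (5716899), mutant 1 gave 882 (7856304) and mutant 2, the smallest, gave 181 (1704466). Library medians were 8638 to 9039 UMIs a cell. Barcodes over 10% mitochondrial UMIs made up 22.0% to 41.4% of the libraries. Counted in each library that held them, 62 barcodes had a sequence also found in another library. Among kept cells, 8 shared their sequence with a kept cell of another library. Rows for 3 antibody tags were present in the WT matrices and absent from the mutant ones, so effects of hashtag handling and of genotype cannot be told apart. Whether each library is a separate animal is not stated, and the p-values measure only how far these libraries spread, which may be technical.

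Core transcripts were concentrated in few cells. On all UMIs, 1407 of the 2968 kept T cells had no core UMI, 1401 had 1 or 2 different core members, 104 had 3 or 4, and 56 had 5 or more, of which 33 had at least 10 and 18 at least 20. The highest was 30 of 32 in a cell of mutant 1. Because deeper cells show more genes, each cell was also thinned to 3000 UMIs, which 2882 kept cells reached. Then 2093 cells had none, 746 had 1 or 2, 11 had 3 and 5 had 4. A kept T cell with at least 5 core members after thinning is called a carrying cell below. There were 27 carrying cells, of which 1 had exactly 5 core members, 0 had 6, 19 had at least 10 and the highest had 24.

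Carrying cells made up a larger share of both mutant libraries than of either WT library, with a difference the design cannot call. They were 4 of 1262 cells in WT 1 (0.317%, exact 95% binomial interval 0.0864% to 0.810%) and 6 of 612 in WT 2 (0.980%, 0.361% to 2.12%). They were 15 of 848 in mutant 1 (1.77%, 0.993% to 2.90%) and 2 of 160 in mutant 2 (1.25%, 0.152% to 4.44%). The genotypes did not overlap, but the intervals of WT 2 and both mutant libraries did, and these intervals cover counting error only. The mean share was 0.649% in WT and 1.51% in mutant, and the exact two-sided permutation test gave p = 0.333, the smallest that 2 against 2 libraries can give. Without thinning the shares were 0.784%, 2.54%, 2.61% and 3.87%. With cells of up to 20% mitochondrial UMIs kept, WT 2 (1.82%) lay above mutant 2 (1.16%).

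**Figure D1:**
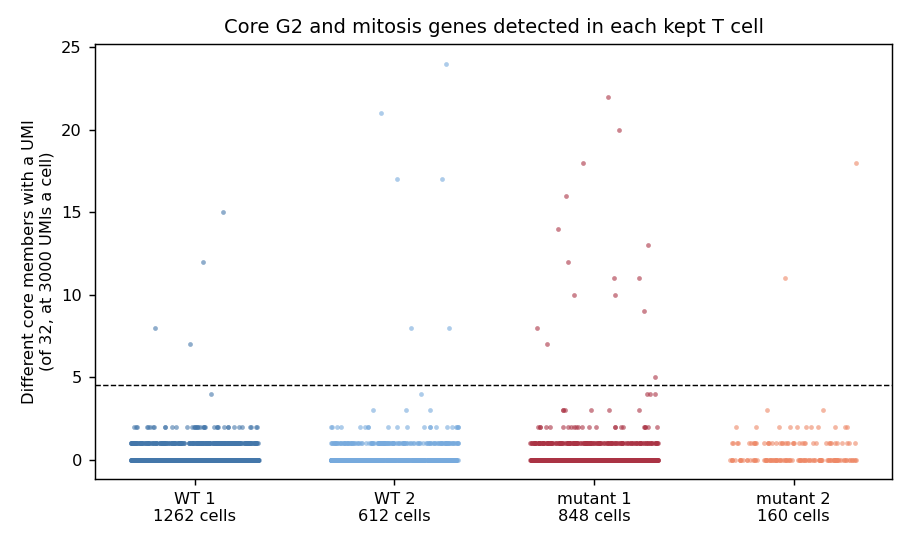
Number of different core members with a UMI in each kept T cell (vertical axis, of 32, at 3000 UMIs a cell) by library, 1 point a cell with random sideways spread; the dashed line lies under 5. Nearly all cells sit at 0 to 2, and 4, 6, 15 and 2 cells lie above the line in WT 1, WT 2, mutant 1 and mutant 2.

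These few cells set much of the core totals. The summed core UMIs of WT 1, WT 2, mutant 1 and mutant 2 were 1752, 1287, 2692 and 572. The carrying cells held 28.7%, 45.5%, 67.2% and 42.3% of them, while making up 0.314%, 0.952%, 1.70% and 1.10% of the kept cells. In mutant 2 a single cell held 31.5% of the library's core UMIs, and the highest cell held 13.5%, 12.4% and 9.62% of those of WT 1, WT 2 and mutant 1. Reaching 50% of the core UMIs took 76 cells in WT 1 and 8, 8 and 3 in the others. The core UMIs of WT 1 were thus spread over more cells. Broad UMIs behaved otherwise. The carrying cells held 3.22%, 6.62%, 17.5% and 10.3% of them.

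**Figure D2:**
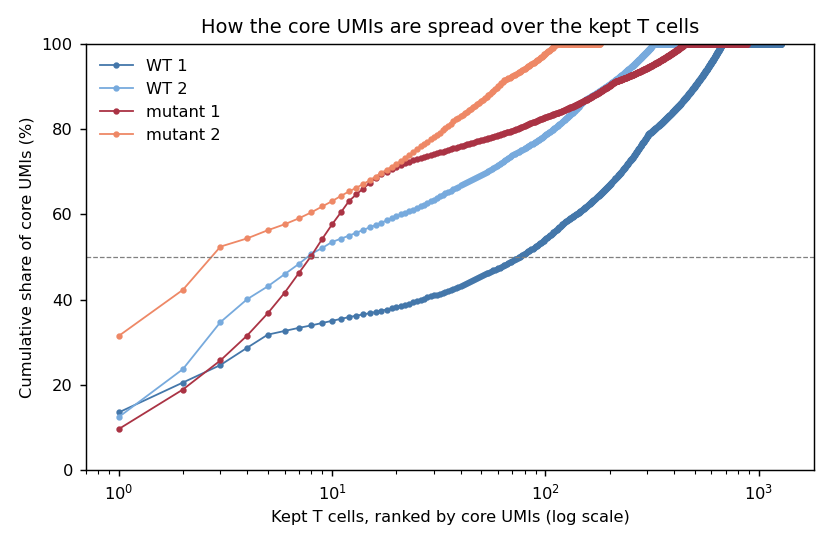
Cumulative share of a library's core UMIs (vertical axis, %) over its kept T cells ranked from most to fewest core UMIs (horizontal axis, log scale), 1 line a library. The WT 1 line crosses 50% after 76 cells, and those of WT 2, mutant 1 and mutant 2 after 8, 8 and 3.

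Within the carrying cells, core transcript density overlapped between genotypes. Per 10000 UMIs, those of WT 1, WT 2, mutant 1 and mutant 2 held 64.9, 95.6, 84.8 and 95.9 core UMIs, against 1.04, 1.24, 1.16 and 1.98 in the other kept cells. On the log2 scale the mutant level was 0.19 above WT (exact permutation p = 0.667), and it was below WT when WT 1 was left out (a log2 difference of -0.085), so its direction rests on that library. These cells were chosen on the same genes, so the level is a description. Summed over all kept T cells, core members reached 148 and 226 CPM (UMI counts scaled to a common library total, with TMM factors) in WT 1 and WT 2 and 348 and 324 CPM in mutant 1 and mutant 2, a log2 difference of 0.88 (exact permutation p = 0.333). Broad members reached 1832 and 1794 CPM in WT and 1707 and 1693 CPM in mutant.

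The share of a member's UMIs found in carrying cells varied widely, also within a role. Among the cyclins, Ccnb2 (cyclin B2) had 211 UMIs in 35 cells, 90.0% of them in carrying cells, and Ccna2 (cyclin A2) had 75 UMIs in 22 cells, 89.3% in carrying cells. Cdk1 was less confined, with 39.5% of its 86 UMIs there, as was Aurkb among the kinases (34.5% of 55). Of the other kinases and their partners, Birc5 (survivin, of the chromosomal passenger complex) had 90.1% of 223 UMIs in carrying cells, Plk1 (Polo-like kinase) 80.4% of 56, and Ttk (the checkpoint kinase Mps1) 90.9% of 22. Among the spindle proteins, Hmmr had 98.2% of 111 UMIs there and Nusap1, which bundles spindle microtubules, 90.1% of 111. The lowest core member was Kif20b, a kinesin, with 15.2% of 545 UMIs, and the median over the core members was 69.6%.

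A few core members were also found widely outside the carrying cells. Cenpa, the histone H3 variant of centromeres, had a UMI in 18.04% of the other kept cells, Top2a in 11.7%, Kif20b in 11.4% and Cdca8, a passenger complex subunit, in 8.06%. Hmmr, Ttk and Nek2 had one in 0.0701% each. As a reference for resting cells, the naive or memory-like cluster (340 cells, median 8425 UMIs, 0 carrying cells) had a Cenpa UMI in 25.6% of cells, Kif20b in 11.5%, Top2a in 8.82% and Cdca8 in 4.41%, against a median of 8822 UMIs in the other kept cells. Cenpa and Kif20b were thus no more frequent in the other kept cells than in that cluster, of which 2 cells had at least 5 core members on all UMIs. Mki67 had a UMI in 4.31% of the other cells and in 1.76% of that cluster. Most broad members were common in the other cells, with a UMI in 83.3% of other cells for Smc4, the condensin ATPase, and 81.3% for Hmgb2, a chromatin protein. Pttg1 (securin), Ckap2 and Tacc3 were rarer, with a UMI in 2.91%, 2.00% and 4.24% of other cells and 59.2%, 48.5% and 18.1% of their UMIs in carrying cells.

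In bulk sums such as these, fewer cells with a transcript and less of it per cell cannot be told apart, so each result is given beside the carrying cells. Over all kept T cells, 4 members were higher in mutant than in WT libraries and none was lower. Of the 10727 genes tested (edgeR, quasi-likelihood, p-values adjusted over all of them by Benjamini-Hochberg), 88 were called higher (0.82%) and 53 lower (0.494%). Of the members, 44 were tested, since Gtse1 (6, 3, 10 and 0 UMIs in WT 1, WT 2, mutant 1 and mutant 2) and Nek2 (5, 4, 13 and 1) had too few UMIs. The median log2 fold change was 1.09 over the 30 core members tested, -0.11 over the 14 broad members and -0.0014 over all genes tested. All 30 core members and 6 of 14 broad members had a positive log2 fold change. The count filter needs enough UMIs in 2 libraries. Core members low in both WT libraries, such as Ccna2, Ttk, Bub1 and Anln, passed it through the mutant libraries, which bears on their direction. With no filter beyond 1 UMI all 32 core members were positive (median 1.07). With at least 10 UMIs in every library all 16 tested were (median 0.93). In 24 of 44 members both mutant libraries lay above both WT libraries, where 23.3% of all tested genes did, and in 5 both lay below, where 22.8% did. The 24 comprised 20 core and 4 broad members, and the 5 were all broad (Tubb5, Tubb4b, Stmn1, Cks1b and Anp32e). At an unadjusted p under 0.05 there were 24 members, where 1342 of the 10727 genes tested passed, and of the 24 Tubb5 alone had a negative log2 fold change.

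Nusap1 (ENSMUSG00000027306, chromosome 2, 119618298 to 119651244, plus strand, GRCm38) had 0.761 and 2.11 CPM in WT 1 and WT 2 and 9.71 and 8.51 CPM in mutant 1 and mutant 2. The genotypes were far apart, and the log2 fold change was 2.88 ± 0.43 (SE; edgeR adjusted p = 0.00271). Those CPM stand for 9, 12, 75 and 15 UMIs, of which 3, 8, 75 and 14 came from carrying cells. In the mutant libraries nearly every Nusap1 UMI came from 11 and 2 cells.

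Ccna2 (ENSMUSG00000027715, chromosome 3, 36564865 to 36572150, minus strand) had 0.931 and 1.41 CPM in WT and 6.47 and 3.40 CPM in mutant libraries. Mutant 1 was the highest, and the log2 fold change was 2.31 ± 0.47 (SE; edgeR adjusted p = 0.0241). Ccna2 passed the count filter through the mutant libraries. The other members of the cyclin and Cdk1 group did not pass the test. Cdk1 had 1.10 and 2.99 CPM in WT and 5.70 and 6.81 CPM in mutant libraries (log2 fold change 1.72 ± 0.47, edgeR adjusted p = 0.0950). Ccnb1 (cyclin B1) had a log2 fold change of 1.42 and Ccnb2 of 0.89, both with no overlap between genotypes. The broad Cks2 and Cks1b, small partners of cyclin-dependent kinases, had log2 fold changes of 0.16 and -0.08.

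Mki67 (ENSMUSG00000031004, chromosome 7, 135689784 to 135716361, minus strand) had 9.56 and 20.9 CPM in WT and 40.8 and 34.0 CPM in mutant libraries. Its log2 fold change was 1.43 ± 0.26 (SE; edgeR adjusted p = 0.00955), and the WT libraries differed from each other by more than the mutant libraries did. Top2a (ENSMUSG00000020914, chromosome 11, 98992943 to 99024189, minus strand) had 19.9 and 24.3 CPM in WT and 38.6 and 49.3 CPM in mutant libraries, a log2 fold change of 0.96 ± 0.17 (edgeR adjusted p = 0.0087). Carrying cells held 65.6% of the Mki67 UMIs and 30.6% of the Top2a UMIs. The broad members of chromosome structure did not pass the test. Hmgb2 had a log2 fold change of 0.32 (edgeR adjusted p = 0.389) and Smc4 of -0.22 (0.584), and Lbr, the lamin B receptor, and Anp32e, a histone chaperone, had -0.14 and -0.15.

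No mitotic kinase or partner passed the test, though all 7 tested had a positive log2 fold change (median 0.78). Ttk had 0.169 and 0.704 CPM in WT and 1.55 and 2.27 CPM in mutant libraries (log2 fold change 2.23 ± 0.80, edgeR adjusted p = 0.226), from 22 UMIs in all. Plk1 had 0.508 and 2.29 CPM in WT and 4.27 and 2.27 CPM in mutant libraries (1.65 ± 0.61, adjusted p = 0.244), so WT 2 and mutant 2 were alike. Birc5 had a log2 fold change of 1.13, Cdca8 of 0.67, Tpx2 (an activator of Aurora A) of 0.78, Aurka of 0.78 and Aurkb of 0.69.

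Among checkpoint and anaphase-promoting complex genes, Ube2c missed the threshold narrowly and rested on 1 library. It had 2.54 and 4.22 CPM in WT and 13.1 and 3.97 CPM in mutant libraries (log2 fold change 1.68 ± 0.40, edgeR adjusted p = 0.05004), so mutant 2 lay below WT 2. Without mutant 1 its log2 fold change was 0.28. Bub1, a checkpoint kinase, had 0.508 and 0.528 CPM in WT and 2.07 and 2.27 CPM in mutant libraries (2.00 ± 0.65, adjusted p = 0.170). Bub1b (1.66) and Cdc20 (1.04) also had positive log2 fold changes, while broad Pttg1 had 0.31 and Bub3, which carries checkpoint proteins to kinetochores, -0.17.

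The 3 centromere genes and the 3 cytokinesis genes had positive log2 fold changes, none past the threshold. Cenpf, a kinetochore protein of G2 and M phase, had 4.57 and 12.3 CPM in WT and 20.7 and 15.9 CPM in mutant libraries (log2 fold change 1.31 ± 0.33, edgeR adjusted p = 0.0669). Cenpe, the kinetochore kinesin, had 5.41 and 10.4 CPM in WT and 16.6 and 12.5 CPM in mutant libraries (1.04 ± 0.29, adjusted p = 0.101). Cenpa had a log2 fold change of 0.46. Anln (anillin, of the cleavage furrow) had 0.423 and 0.176 CPM in WT and 1.94 and 2.27 CPM in mutant libraries (2.52 ± 0.72, adjusted p = 0.114), from 25 UMIs. Cdca3, which triggers loss of the kinase Wee1, had 1.19, and Ect2, which starts the contractile ring, 0.68.

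Of the 13 kinesins, spindle and microtubule proteins, Nusap1 alone passed the test. Hmmr had 1.78 and 4.22 CPM in WT and 7.64 and 3.97 CPM in mutant libraries, so mutant 2 lay below WT 2 (log2 fold change 1.25 ± 0.44, edgeR adjusted p = 0.211). The kinesins Kif2c, Kif11, Kif23 and Kif20b had log2 fold changes of 1.04, 0.75, 0.43 and 0.09, and Dlgap5, a spindle assembly factor, had 0.28. The broad tubulin Tubb5 had 330 and 284 CPM in WT and 234 and 233 CPM in mutant libraries (-0.39 ± 0.13, adjusted p = 0.195), and Tubb4b and Stmn1 (stathmin, which frees tubulin dimers) had -0.22 each. Ckap2, Ckap5 and Tacc3, microtubule-associated proteins, had 0.25, 0.23 and 0.16.

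**Figure D3:**
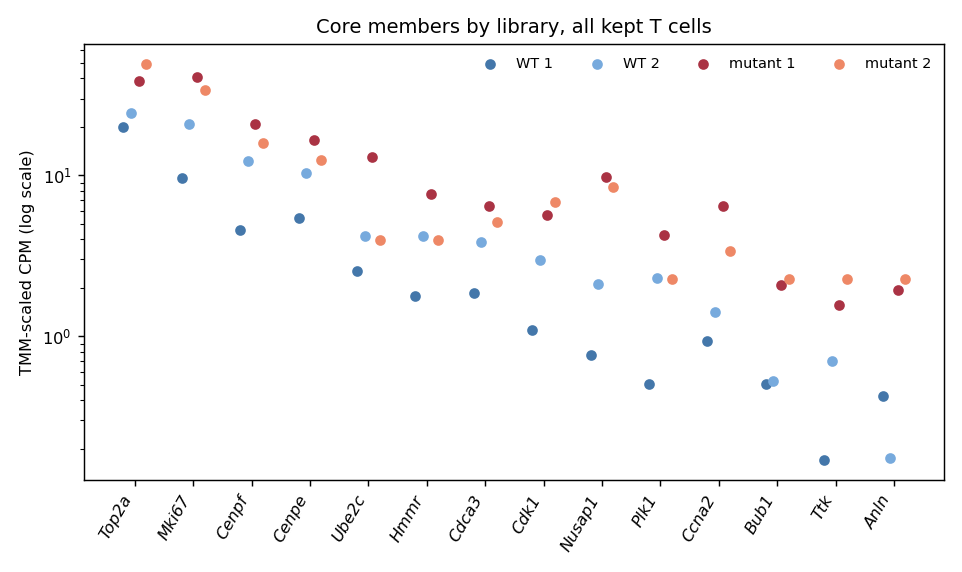
TMM-scaled CPM (vertical axis, log scale) in each library for the core members with the largest log2 fold changes of each role and those past the test, all kept T cells, 1 point a library. Both mutant libraries lie above both WT libraries except for Ube2c, Hmmr and Plk1, where mutant 2 lies below WT 2.

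These calls depended on libraries and filters. With at least 10 UMIs in every library 3 members were called (Cenpf, Mki67 and Top2a), and that filter left out Nusap1 and Ccna2. The number of members called higher was 1 without WT 1 (Nusap1), 14 without WT 2, 0 without mutant 1 and 5 without mutant 2, and it was 0 when cells of up to 20% mitochondrial UMIs were kept. The summed level of 10 B cell marker genes moved the same way as the core members, with 1 of 5 tested markers called higher. Scaled without TMM factors, unlike the core sums above, it was 169.8 and 230 CPM in WT and 299 and 347 CPM in mutant libraries. Leaving out the 155 kept cells with at least 3 markers of B or germinal centre B cells, 6 carrying cells among them, left 2 members called (Nusap1 and Top2a) and a log2 difference of 0.54 in the summed core level, with mutant 2 (191 CPM) just below WT 2 (194 CPM). In mutant 2 this left out the cell that held 31.5% of the library's core UMIs (180). That cell had 18109 UMIs, 8 of 8 T cell markers, 3 B cell markers and 1 germinal centre marker. Markers were counted on all UMIs, so deeper cells reach this rule more easily. The part of these markers in the result was not tested beyond this. In the carrying cells of WT 1, WT 2, mutant 1 and mutant 2 the B cell list reached 335, 473, 370 and 515 CPM, also without TMM factors. That was above the level over all kept cells in each library. Of its 10 genes, 6 had no UMI in carrying cells, but genes such as Cd79a and Ms4a1 were so rare in the other cells (11 and 2 UMIs) that a count of 0 there is uninformative.

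Without the carrying cells, no member passed the test between genotypes. Those cells were chosen on core members, so leaving them out removes core UMIs by construction. Core members are therefore a description here, and the test bears on the broad members. Among the other kept T cells 10624 genes were tested, 49 were called higher (0.461%) and 40 lower (0.377%), 0.838% in either direction. Of 30 members tested none was called by edgeR or DESeq2. At an unadjusted p under 0.05 there were 7 members by edgeR and 5 by DESeq2. Of the 10624 genes, 1265 passed that by edgeR and 536 by DESeq2. The other 16 members, all core, had too few UMIs left. The median log2 fold change of the 14 broad members was -0.25, and 2 of them had a positive one. Stmn1 had 82.1 and 63.9 CPM in WT and 36.8 and 55.5 CPM in mutant libraries (log2 fold change -0.76 ± 0.19, edgeR adjusted p = 0.0875). Tubb5 had -0.49 (adjusted p = 0.134) and Cks1b -0.57 (0.223), each with both mutant libraries below both WT libraries. The members lay apart between genotypes in 2 genes with mutant higher and 7 with mutant lower, against 22.2% and 22.6% of all tested genes. With 1 library left out, Mki67 and Stmn1 were called without WT 2, Mki67, Top2a and Tubb4b without mutant 1, and Cenpe, Stmn1 and Tubb5 without mutant 2, and none without WT 1.

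Some core transcripts remained outside the carrying cells, given as a description since those cells were chosen on core members. Mki67 there had 4.18 and 8.24 CPM in WT and 10.3 and 21.04 CPM in mutant libraries (log2 fold change 1.23 ± 0.37, edgeR adjusted p = 0.170), and Cenpe had 2.73 and 3.04 CPM in WT and 7.96 and 7.60 CPM in mutant libraries (1.45 ± 0.34, adjusted p = 0.0665). Top2a had a log2 fold change of 0.31 there, Ccnb2 of 0.15 and Cdc20 of 0.12. The 56 cells with at least 5 core members on all UMIs, also chosen on core members, were left out instead. Of 26 members then tested none was called higher and Stmn1 was called lower. Of all 10583 genes tested in that setting, 77 were called higher and 52 lower.

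**Figure D4:**
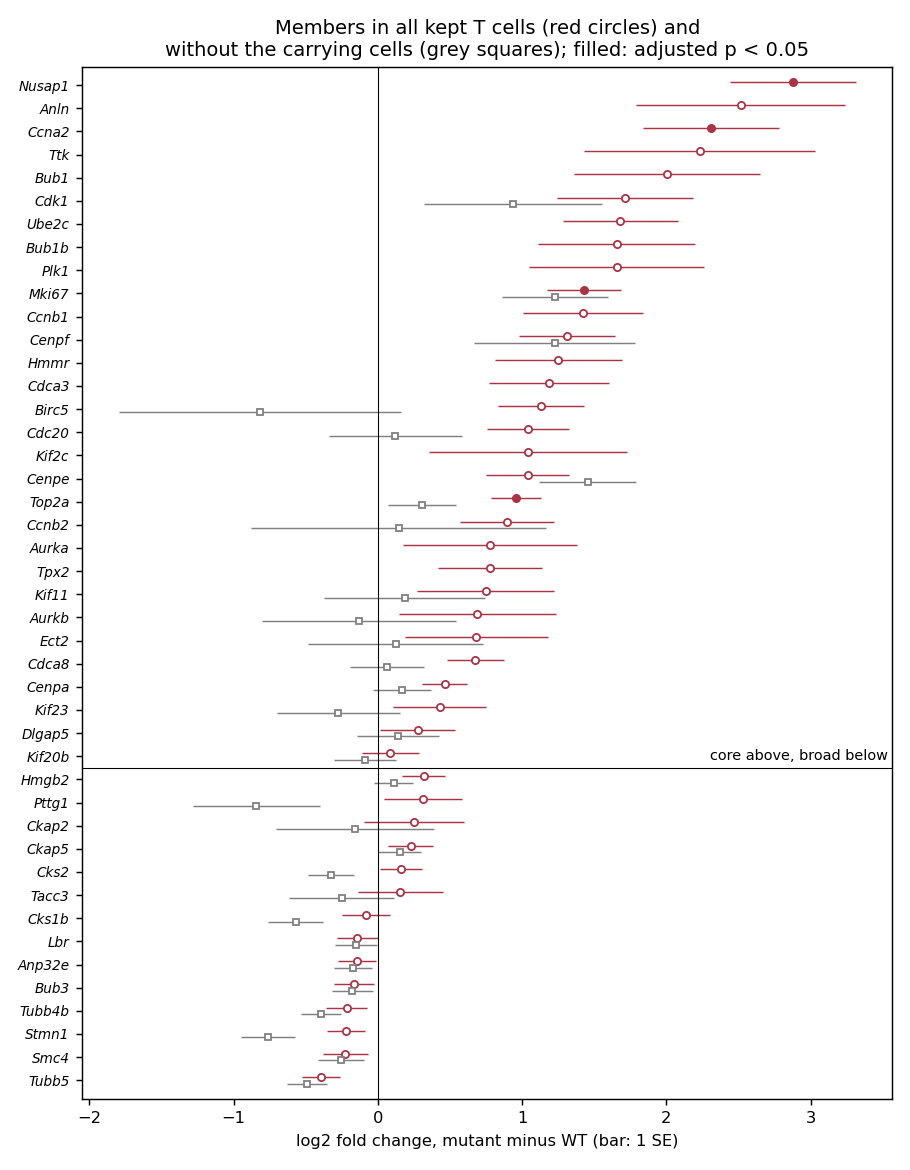
log2 fold change, mutant minus WT, with 1 SE (horizontal axis) for the members tested over all kept T cells (red circles, 44) and without the carrying cells (grey squares, 30); core members are above the line and broad members below, and filled symbols passed the adjusted threshold. All core circles lie right of 0 and 4 are filled, and no square is filled. Core squares are a description, since the carrying cells were chosen on core members.

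Of 80 further G2 and M genes from a list, 63 were tested and 4 were called higher in mutant libraries, where 0.82% of all tested genes were. These were Neil3 (log2 fold change 2.71, edgeR adjusted p = 0.0446), Sgo1 (2.15, 0.0371), Knl1 (1.88, 0.0337) and Ncapg2 (1.58, 0.0159). Sgo1 (shugoshin) protects cohesion at centromeres, Knl1 is a kinetochore scaffold, Ncapg2 is a condensin II subunit and Neil3 is a DNA glycosylase. The calls were lost in 10 of 12 alternatives for Neil3, 8 of 11 for Sgo1, 8 of 13 for Knl1 and 6 of 14 for Ncapg2. The median log2 fold change over the 63 genes was 0.40, and the summed level of the list was 1856 and 1853 CPM in WT and 1835 and 1867 CPM in mutant libraries. Of 43 S phase genes tested, such as those of DNA replication, none was called by edgeR, with a median of 0.09. At an unadjusted p under 0.05 by edgeR there were 8, where 1342 of all 10727 genes tested passed. Of 21 cycle brakes and G1 genes tested, 1 was called lower, where 0.494% of all tested genes were. Cdkn2d, an inhibitor of Cdk4 and Cdk6, was lower, at 50.1 and 37.3 CPM in WT and 25.8 and 26.1 CPM in mutant libraries (log2 fold change -0.77, edgeR adjusted p = 0.0365), and the call was lost in 9 of 14 alternatives.

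The carrying cells held T cell markers and more UMIs than the rest. They had a median of 13427 UMIs against 8822 in the other 2855 cells that reached 3000 UMIs, and a median of 8 of 8 T cell markers with a lowest of 6. The summed T cell markers, scaled without TMM factors, were lower in carrying cells than over all kept cells in each library. They reached 12921, 13725, 11657 and 10419 CPM in carrying cells of WT 1, WT 2, mutant 1 and mutant 2. Over all kept cells they reached 14588, 14746, 14485 and 14333 CPM. The B cell list was higher in carrying cells, as given above. The part of these levels in the results on carrying cells was tested only by leaving out cells with B cell markers. Trac, the receptor alpha chain, had a UMI in all 27 after thinning. The median number of core UMIs in a carrying cell was 108, with a lowest of 31 and a highest of 259. At least 20 of 45 S phase genes had a UMI in 6 of 27 carrying cells (1 of 4, 0 of 6, 4 of 15 and 1 of 2 in WT 1, WT 2, mutant 1 and mutant 2) and in 67 of 2855 others. In the clustering, 21 carrying cells lay in cluster 12 (24 cells, led by Ccnb2, Cenpf, Birc5, Hmmr, Cdc20 and Mki67), 5 in cluster 5 and 1 in cluster 0. Cluster 5 held Tfh markers among its leading genes, and its 5 carrying cells all came from mutant libraries.

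In the test of carrying against other cells within each library, 7498 genes were tested, 228 were called higher (3.04%) and 163 lower (2.17%) by edgeR, 5.21% in either direction (201 and 69 by DESeq2), with a median log2 fold change of -0.16. Members and other cycle genes are a description there, since the cells were chosen on them. Of 52 T cell state genes from 8 fixed lists, 0 were called higher and 11 lower by edgeR (6 lower by DESeq2). The number called lower was 18 with cells of up to 20% mitochondrial UMIs kept and 4 without the cells holding B cell markers. With at least 3 core members 1 was called higher, as was 1 with no count filter. Of 16 Tfh genes 2 were called lower and the median log2 fold change was -0.36. On simulated counts this comparison recovered 14% of 2-fold changes over 7498 genes, so a missed call does not show an equal level. Izumo1r (folate receptor 4) had 729, 329, 505 and 264 CPM in the carrying cells of WT 1, WT 2, mutant 1 and mutant 2, against 1302, 1155, 1148 and 1123 in the other cells. It was lower in all 4 libraries, with a log2 fold change of -1.38 ± 0.26 (edgeR adjusted p = 4.58e-06). Slamf6 (a SLAM family receptor) was also lower in all 4 libraries (-1.27 ± 0.27, edgeR adjusted p = 0.000115).

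Cxcr5, Il21 and Il4 did not pass the test. Cxcr5, the receptor that brings T cells to follicles, had 27.5, 109.6, 79.9 and 88.1 CPM in carrying cells and 68.0, 85.7, 119 and 114 CPM in other cells (log2 fold change -0.41 ± 0.38, edgeR adjusted p = 0.698). Il21, the main Tfh cytokine, had 68.8, 266, 279.8 and 235 CPM in carrying and 138, 198, 252 and 193 CPM in other cells (0.07 ± 0.28, adjusted p = 0.956), and its sign turned under 7 of 14 other settings. Il4 had -1.11 (adjusted p = 0.149). After thinning, 13 of 27 carrying cells (48.1%) and 28.4% of other cells had an Il21 UMI, and 4 of 27 (14.8%) and 18.2% a Cxcr5 UMI. Read the other way, 13 of 825 cells with an Il21 UMI were carrying (1.58%), and 14 of 2057 without (0.681%). These shares pool the cells of 4 libraries. Mutant 1 had more Il21 in other cells than WT 1, and also a larger share of carrying cells (1.77% against 0.317%). The pooled shares therefore cannot separate Il21 from library.

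Of 10 genes of recent receptor signalling tested, 5 were called lower in carrying cells, where 2.17% of all tested genes were (Nr4a1, Egr2, Gpr183, Egr3 and Egr1) and none higher, with a median log2 fold change of -1.83. Irf4, Nr4a3, Cd69, Tnfrsf9 and Nr4a2 did not pass the test. Gpr183 (EBI2, an oxysterol receptor that positions cells at the follicle edge) had 124, 62.7, 29.97 and 0 CPM in carrying cells and 264, 208, 192 and 169 CPM in other cells (-1.99 ± 0.37, edgeR adjusted p = 3.11e-06). Nr4a1 (Nur77, an early gene of receptor signalling) and Egr2, an early transcription factor, had -2.18 (edgeR adjusted p = 0.0147) and -2.00 (0.00389), with 5 and 9 UMIs in all carrying cells, and each call was lost in 3 of 14 alternatives. After thinning, and pooled over the libraries, 2 of 27 carrying cells and 36.5% of other cells had a Gpr183 UMI.

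Satb1, Eomes, Nkg7 and Ccr9 were called lower among naive, Th1 and gut-homing genes, and the calls of Satb1, Eomes and Ccr9 were lost or turned in 4, 7 and 4 of 14 alternatives. Satb1, a chromatin organiser of naive T cells, had 151, 47.0, 25.0 and 0 CPM in carrying and 186, 163, 116 and 132 CPM in other cells (-1.46 ± 0.38, edgeR adjusted p = 0.00515). Ccr7 and Klf2, which keep naive T cells recirculating, had -0.70 (adjusted p = 0.564) and -1.23 (0.0933). Nkg7, a granule protein of cytotoxic cells, had no UMI in 377579 UMIs of carrying cells. At each library's own rate in the other cells 18.5 UMIs would have been there, 6.17 times a floor of 3 counts over the group. Ccr9, the receptor for homing to the small intestine, had 1 UMI where that rate gives 13.9, a ratio of 0.0720 (exact 95% Poisson interval 0.00182 to 0.401). Some genes of these lists that did not enter the fit went the other way. Dapl1, of the naive list, had 15 UMIs where that rate gives 1.40, a ratio of 10.7 (exact 95% Poisson interval 5.98 to 17.6). In the Th1 list Gzma had 3 where it gives 0.445 (6.74, 1.39 to 19.7). Cxcr3 of that list had 5 where it gives 1.90 (2.63, 0.852 to 6.13). Floor and intervals treat UMIs as independent. Nkg7 and Ccr9 were among the leading genes of clusters of 130 and 93 cells. Whether the 27 carrying cells only held few cells of such kinds was not tested. Eomes, a transcription factor of cytotoxic cells, had 4 UMIs where the rate gives 16.9 (log2 fold change -2.30 ± 0.70, edgeR adjusted p = 0.0230). Foxp3, the regulatory T cell factor, was not tested. After thinning, 1 of 27 carrying cells and 3.08% of other cells, pooled over the libraries, had a UMI of it.

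Cell cycle genes outside the 46 are given as a description. In carrying cells of WT 1, WT 2, mutant 1 and mutant 2 the summed S phase genes reached 980, 1159, 4857 and 3803 CPM. In the other kept cells they reached 1178, 1220, 1084 and 1375 CPM, so their sum was higher in carrying cells of the mutant libraries only. TMM factors were used for the other cells and not for the carrying cells. Of 30 S phase genes tested 8 had an adjusted p under 0.05 and a higher level, led by Tk1 (thymidine kinase, log2 fold change 4.33), Rrm2 (ribonucleotide reductase, 3.85) and Tyms (thymidylate synthase, 2.97), with Clspn (2.67) and Fen1 (1.91). With a library left out, the log2 fold change of Rrm2 ranged from 1.66 to 4.61 and that of Clspn from 1.09 to 3.01. E2f2, a transcription factor of the cycle, had a log2 fold change of 2.41. Ccnd2 (cyclin D2, of G1 phase, -1.29) and Btg1 (an anti-proliferative gene, -1.12) were lower in all 4 libraries. Of the 86 genes outside the cycle lists that were called higher, the 10 with the largest log2 fold change at a mean log2 CPM of at least 5 were Lockd, Hist1h1b, Pclaf, Hist1h2ae, Hist1h2ap, Gm49980, Selenoh, Dbf4, Lmnb1 and Vim, from 5.60 for Lockd to 2.54 for Vim. Lockd is a noncoding RNA, Pclaf binds PCNA at replication forks, the Hist1 genes encode replication histones, Dbf4 activates a replication kinase and Lmnb1 encodes lamin B1. Of these, 9 were higher in carrying cells of all 4 libraries, and Vim (vimentin) of 3.

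**Figure D5:**
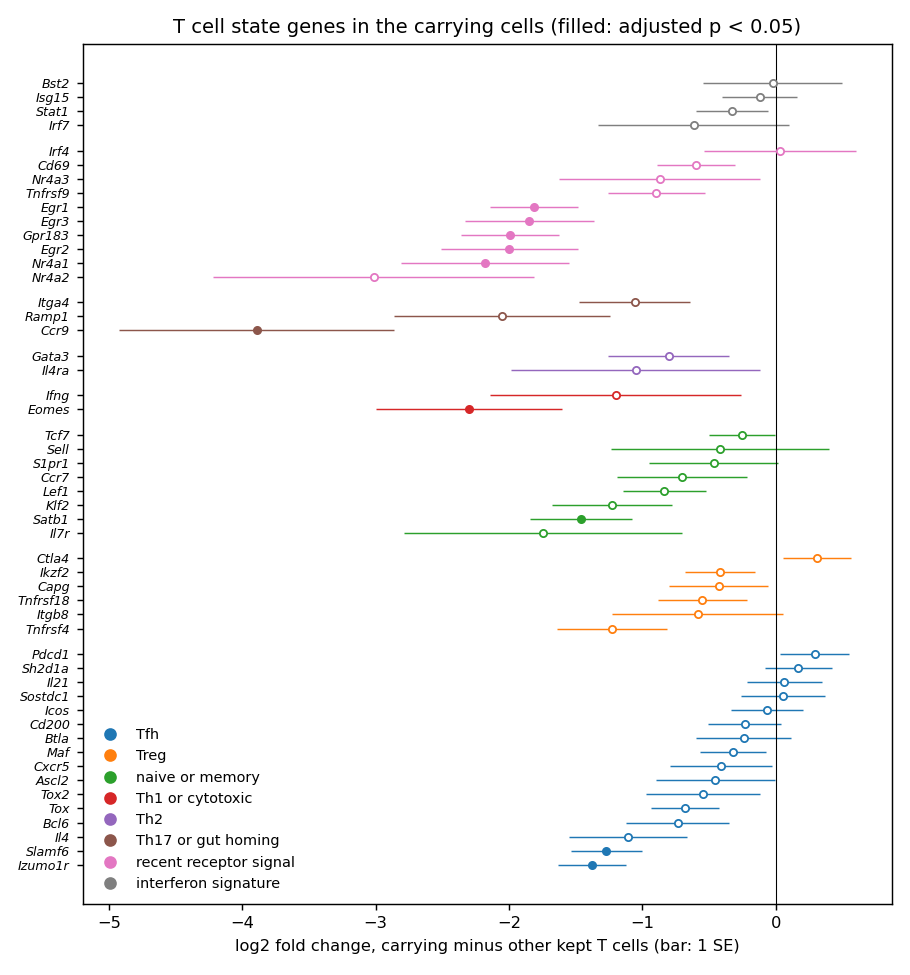
log2 fold change of T cell state genes in carrying against other kept T cells, with 1 SE (horizontal axis), coloured by list; filled points passed the adjusted threshold, and Nkg7, with no UMI in carrying cells, is not drawn. The filled points lie between -1.27 and -3.89, all left of 0.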

How the data were processed

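Single-cell 3′ RNA libraries were made with the Chromium v2 kit, per the labels' protocols, and the submitters' processing notes name Cell Ranger 6.0.0, Seurat 4 and the mm10 build. The authors deposited UMI counts per gene and barcode for 4 libraries, and 2 WT hashtag samples were not analysed here. The members and lists were chosen with earlier results of these data known.

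Barcodes with at least 500 genes and at most 10% mitochondrial UMIs were kept (3108 of 4803). Scrublet doublets (31) and a cluster of 109 cells with epithelial and B cell markers were removed, leaving 2968 T cells. Clusters (scanpy 1.11.5, 30 principal components, 15 neighbours, Leiden resolution 0.8) were rebuilt here and named from listed markers. Cells were thinned to 3000 UMIs, which left out 86 shallower cells. Counts were summed per library and tested with edgeR 4.0.16 (quasi-likelihood, TMM scaling, Benjamini-Hochberg threshold 0.05), with DESeq2 1.42.0 as an alternative. Carrying and other cells were compared with library as a block. Genotype values over libraries used exact two-sided permutation tests. Intervals are exact (Clopper-Pearson, 95%) and, like floors, cover counting error only.

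Each member was described, in most detail those of each role with the largest fold changes. Genes of other lists were named if past the threshold, at most 5 a direction for cycle lists and 3 for state lists, besides Cxcr5, Il21, Il4, Foxp3, Ccr7 and Klf2. On simulated counts the test recovered 80% of 2-fold and 96% of 4-fold changes in the genotype comparison over 10727 genes, 72% and 97% without carrying cells over 10624 genes, and 14% and 71% in the comparison of carrying with other cells over 7498 genes. The simulation gave all genes the same dispersion. Its shares need not hold for core members, whose UMIs lie in few cells. Alternatives covered the tool, count filter, cell filters, thinning, threshold of core members, replicate block and each library left out. Promoters came from RefSeq (GRCm38.p6) and gene positions from GENCODE on GRCm38.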

Additional observations from a re-analysis of the deposited data

Results flagged for a closer look

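Barcodes left out of the kept T cells also held core transcripts of G2 and mitosis, and the main comparisons above do not use them, though the settings with up to 20% mitochondrial UMIs or with all barcodes take some or all of them in. The 1835 left-out barcodes of WT 1, WT 2, mutant 1 and mutant 2 held 83, 1419, 1164 and 1269 core UMIs, which is 4.52%, 52.4%, 30.2% and 68.9% of each library's core UMIs. Of them, 39 had at least 5 core members on all UMIs, and of these 16 had at least 6 B cell markers, 10 at least 5 epithelial markers and 7 at least 5 T cell markers. In mutant 2, 1 barcode with 229053 UMIs, 10 of 11 epithelial markers and 0 T cell markers held 1154 core UMIs. In WT 2 and mutant 1 the highest left-out barcode held 604 and 428.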

How the results depend on the processing

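Alternatives without shared barcodes, without cells holding B cell markers, without the 56 cells with at least 5 core members on all UMIs and, for carrying against other cells, with no thinning were chosen after seeing the data, and the cause of each change below was not tested. Genes called in the genotype comparison numbered 141, against 65 with DESeq2, 409 with no count filter, 336 with the replicate block, 26 with up to 20% mitochondrial UMIs, 0 with all barcodes (612 at an unadjusted p under 0.05 by edgeR), 90 without cells holding B cell markers and 6 (without mutant 1) to 263 (without WT 2) with a library left out. Members called higher numbered 4, against 14 with no filter, 11 with the replicate block, 0 with 20% mitochondrial UMIs, 0 with all barcodes, 2 without cells holding B cell markers, 0 without the 56 cells and 0 to 14 with a library left out. Without carrying cells, 89 genes were called, against 50 with DESeq2, 368 with no count filter, 395 with the replicate block and 38 to 452 with a library left out, and 0 members, against 3 with no filter, 5 with the block and 0 to 3. Shared replicate numbers are only names: same-numbered libraries' deviations correlated at 0.0281 over 10727 genes, with 2 pairs. In carrying against other cells 391 genes were called, against 969 with all barcodes, 762 with at least 3 core members, 1134 with no thinning, 138 without cells holding B cell markers and 192 (without mutant 1) to 397 with a library left out. State genes called lower numbered 11, against 6 with DESeq2, 18 with 20% mitochondrial UMIs, 23 with all barcodes, 4 without cells holding B cell markers and 8 to 13. The log2 difference in core level within carrying cells ranged from -0.085 to 0.47 with a library left out. Signs turned for these log2 fold changes. Without cells holding B cell markers Cks2 had -0.14, Pttg1 -0.14 and Ckap2 -0.0037, and without the 56 cells -0.27, -0.95 and -0.10. Ckap2 had -0.13 with 20% mitochondrial UMIs and -0.19 to 0.50 with a library left out. Without carrying cells, Hmgb2 had -0.0076 to 0.24 and Top2a -0.053 to 0.88. In carrying cells, with no thinning, Eomes had 0.18 and Cxcr5 0.037. Il21 had -0.070 with no filter, -0.0021 with at least 10 UMIs, -0.23 with 20% mitochondrial UMIs, -1.05 with all barcodes, -0.0095 with at least 8 core members and -0.041 to 0.29 with a library left out. The 27 carrying cells limit every value on them.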

Other observations

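Hist1h2ap, a replication histone gene, had 82.5 and 141 CPM in the carrying cells of WT 1 and WT 2 and 2648 and 1821 CPM in those of mutant 1 and mutant 2, against 19.8 to 62.3 CPM in the other kept cells. Hist1h2ae had 55.0 and 31.3 CPM in WT and 959 and 881 CPM in mutant carrying cells. Hist1h1b, which encodes a linker histone, had 41.3, 47.0, 599 and 58.7 CPM in the same order, so mutant 2 was near the WT libraries. The summed S phase genes had 980 and 1159 CPM in WT and 4857 and 3803 CPM in mutant carrying cells, without TMM factors. The 5 carrying cells in cluster 5, all from mutant libraries, had 24 to 43 S phase genes. The difference between genotypes within carrying cells was not tested, and mutant 2 had 2 such cells. Vim had 743, 188, 49.96 and 0 CPM in the carrying cells of WT 1, WT 2, mutant 1 and mutant 2, and 48.5, 44.6, 20.2 and 11.8 CPM in the other kept cells, the same order.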
